A study of Mus musculus with 10 samples.

Results

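Mature sperm of cadmium-treated mice were compared with sperm of saline-treated mice, which was 1 experiment within a series of 10 RNA-seq libraries. The comparison was chosen by the sample titles: the libraries of cadmium replicates 1 and 2 were set against those of control replicates 2, 3 and 4, so that 5 of the 10 libraries entered the tests. A further control sperm library, control 1, served as a check, and the other 4 libraries came from testes. The study left out its first sperm replicate because of a low Pearson correlation with the other sperm replicates. The labels give C57BL/6 mice of 3 to 5 months, whereas the study's methods name the strain C57BL/6J and an age range that starts lower. Treated males received CdCl2 as 1 intraperitoneal injection at 3 mg/kg, control males received saline (0 mg/kg), and both were killed 35 days later. By the methods of the study, each control sperm sample was a pool of several mice, and sperm were purified by swim-out, sieving and lysis of somatic cells. Whether the cadmium sperm were pooled in the same way is not given in the sources used here. Both groups were wild type with no transgene, and since nothing states that the cadmium libraries came from separate animals or pools, the p-values measure the spread between these libraries, which may be technical.

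Mature sperm are nearly silent in transcription. Their RNA is largely what was left when most of the cytoplasm was shed at the end of spermiogenesis, as histones gave way to protamines and the nucleus condensed, and much of it is fragmented. Cadmium is a toxic metal that binds thiol groups and displaces zinc. Cells meet it with metallothioneins, glutathione, chaperones and antioxidant enzymes, and the testis is among the organs it damages most readily. Long noncoding RNAs (lncRNAs) are long transcripts with no known protein product, and many are transcribed in male germ cells.

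Each library listed an expected count for every transcript, which is an estimated number of read fragments that need not be whole. Counts were summed by gene and placed in 4 classes from the transcript names: known mRNA, predicted mRNA, known lncRNA and predicted lncRNA. The cadmium libraries held 1155491 and 1254477 expected counts, control 2 held 1058017, and controls 1, 3 and 4 held 424606, 366455 and 508252, so that 3 counts, taken as the detection floor, were worth 2.39 to 8.19 counts scaled to the library total (CPM). The depth therefore differed between the groups, and only control 2 was as deep as the cadmium libraries. Over 9502 genes, the log2(CPM + 10) profile of cadmium 1 had a Pearson correlation of 0.908 with cadmium 2 and of 0.917 with control 2, and that of control 2 with cadmium 2 was 0.920. Control 3 stood apart, with correlations of 0.665 to 0.766 with the other 5 libraries, and so did control 1, at 0.665 to 0.794. Control 3 was kept in the tests and control 1 was not. These correlations were across genes, which are not independent replicates, and they moved with depth. Among the defining markers of sperm and late spermatids, Prm2 was present in every library at 106 to 256 CPM, whereas Odf1 was listed at 0 in all 6 and Prm1 held 0 to 10 counts. The summed CPM of the sperm list was 144 in control 1, 193 to 352 in controls 2 to 4 and 283 to 302 with cadmium. Among markers of other cells, in the 6 libraries the Sertoli cell list summed to 0 to 15.9 CPM, Sycp3 of meiotic cells held 4 counts in cadmium 1 and 0 elsewhere, and the leukocyte list summed to 163 to 311 CPM, a level like that of the sperm list, with overlapping groups. Nearly all of it was H2-Ab1 (153.8 to 293 CPM), without which it summed to 0 to 22.5 CPM, and Ptprc, Cd68 and Lyz2 held 0 to 3 counts. Star led the Leydig cell list (11.8 to 109 CPM in controls 2 to 4, 13.8 to 22.3 with cadmium), Clu the Sertoli cell list, Epcam the epididymal list (at most 13.6 CPM), Slc4a1 the red blood cell list (at most 5.90 CPM), Tagln that of smooth muscle and fibroblasts (at most 51.8 CPM, in control 1) and Kdr that of endothelium (at most 0.865 CPM), and all of these overlapped or held few counts. The spermatogonial list summed to 13.8 to 19.1 CPM in controls 2 to 4, 30.6 in control 1 and 29.4 and 30.3 with cadmium. Its marker of highest mean, Gfra1, stood at 1.73 and 4.78 CPM with cadmium and at 16.4 and 13.8 in controls 3 and 4. Control 2 lay within the cadmium range for Gfra1, so the groups overlapped, and every sperm library held few counts of it. Without Gfra1 the list summed to 15.1, 2.73 and 0 CPM in controls 2 to 4, 14.1 in control 1 and 27.7 and 25.5 with cadmium, mostly Sohlh1 and Id4. Their part in the results was not tested.

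The most even difference between the groups was in how the counts were spread over genes. The 10 highest genes of each library took 30.8%, 28.5% and 27.5% of the counts in controls 2, 3 and 4 and 15.0% and 17.5% in the cadmium libraries, and control 1 stood at 24.5%. The groups did not overlap, with or without control 1, and the means were 28.9% ± 1.69 (SD, n = 3) in control and 16.3% ± 1.72 (SD, n = 2) with cadmium. The exact permutation test, two-sided, had p = 0.2, which is the smallest p that 2 against 3 libraries allow; with control 1 the smallest was 0.133 and was reached. The 100 highest genes took 50.9% to 53.3% in all 4 control libraries and 38.5% and 44.8% with cadmium. Over the 5 libraries, 2 lncRNA genes led the list: together they took 13.9%, 12.0% and 15.6% of the counts in controls 2, 3 and 4 and 5.33% and 4.08% with cadmium. Control 1, at 4.98%, lay with the cadmium libraries for this pair of genes.

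**Figure D1:**
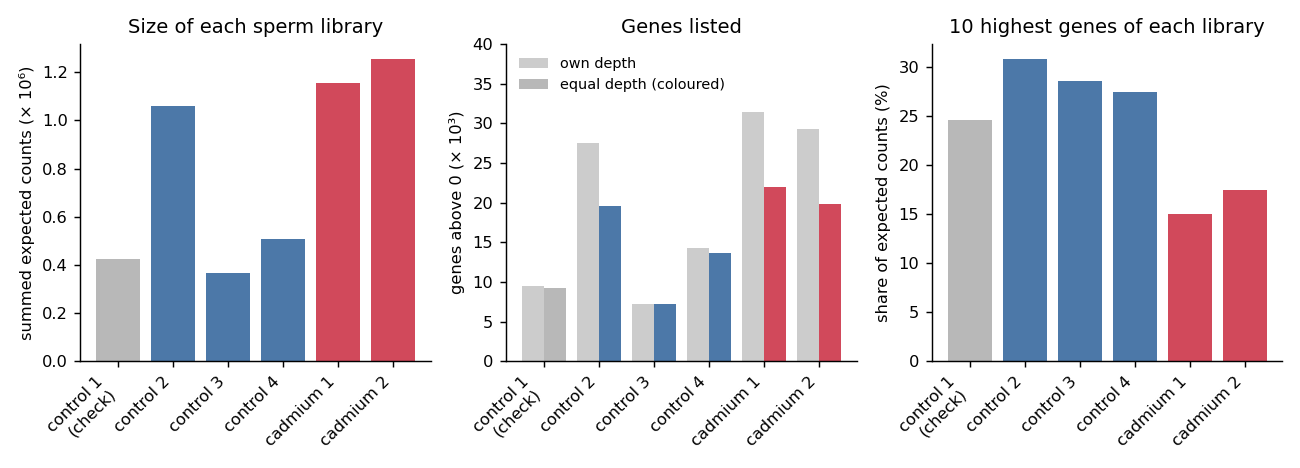
The 3 panels show, for each sperm library, the summed expected counts, the genes above 0 (pale bars at the library's own depth, coloured bars at equal depth), and the percent of counts in its 10 highest genes, with control 1 in grey, controls 2 to 4 in blue and cadmium in red. The cadmium bars are lowest in the right panel, at 15.0% and 17.5%, and at equal depth their 21948 and 19879 genes are close to the 19542 of control 2.

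More genes were listed above 0 in the cadmium libraries. At their own depth these listed 31365 and 29335 genes, against 27560, 7236 and 14331 in controls 2, 3 and 4. At the equal depth of 366456 counts the numbers expected were 21948 and 19879 with cadmium, against 19542, 7182 and 13644 in those controls and 9281 in control 1. The cadmium libraries were above every control library, by 7457 genes on average (20913 ± 1463, n = 2, against 13456 ± 6182, n = 3, SD), but cadmium 2 exceeded control 2 by less than the spread of either group, and the exact permutation p was 0.2. Known mRNA genes followed the same order at equal depth, with 5483 and 5027 genes under cadmium and 4708, 1546 and 3172 in controls 2 to 4. Known lncRNA genes numbered 13302 and 12083 with cadmium and 12052, 4726 and 8614 in the controls. Predicted lncRNA genes overlapped, at 2614 and 2279 with cadmium against 2303, 719 and 1525. Genes of at least 5 counts at equal depth also overlapped, at 7192 and 6208 with cadmium, 6028, 5733 and 6488 in controls 2 to 4 and 6587 in control 1.

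By counts, the shares of known lncRNAs and known mRNAs overlapped between the groups, while predicted mRNAs and predicted lncRNAs lay apart from controls 2 to 4. Known and predicted mRNAs together held 15.9% and 12.3% of counts with cadmium, against at most 12.2% in the 4 control libraries. Known lncRNAs held 75.8%, 76.1% and 73.5% in controls 2 to 4 and 73.4% and 77.0% with cadmium, which overlapped (exact permutation p = 1). Known mRNAs held 9.45%, 9.14% and 10.7% in the controls and 13.6% and 10.5% with cadmium, and cadmium 2 was within the control range (exact permutation p = 0.4). Predicted mRNAs were the smallest class, at 1.57%, 1.36% and 1.53% in the controls and 2.28% and 1.78% with cadmium, and the groups did not overlap (exact permutation p = 0.2, the smallest allowed; 0.4 after Benjamini-Hochberg adjustment over the 4 classes). Predicted lncRNAs held 13.2%, 13.4% and 14.3% in the controls and 10.7% in both cadmium libraries, a mean difference of -2.92 percentage points, with the same p values by exact permutation. Control 1, at 10.5%, was below both cadmium libraries, and without the 10 highest genes the difference turned to 0.609 points higher with cadmium, as it did in FPKM (fragments scaled to transcript length and library size), at 0.745 points higher. In FPKM every class lay apart between the groups, with or without control 1 (exact permutation p = 0.2 and 0.133, the smallest allowed). Known lncRNAs held 79.5% and 82.8% of FPKM with cadmium, against 83.2% to 84.7% in the 4 control libraries. Known mRNAs held 8.12% and 6.11%, against at most 6.07%, a slight margin for cadmium 2. Without the 10 highest genes, the count shares of both known classes overlapped (exact permutation p = 0.6).

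**Figure D2:**
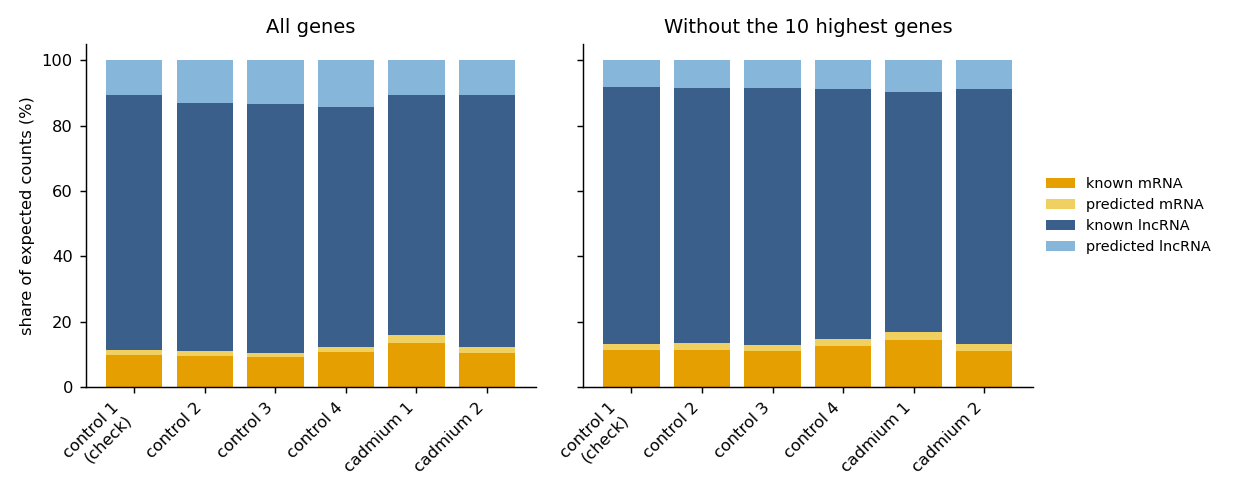
Stacked bars give the percent of expected counts in each RNA class for the 6 sperm libraries, over all genes on the left and without the 10 highest genes on the right. Known lncRNAs fill 73.4% to 78.04% of every library on the left, and the predicted lncRNA band, widest in controls 2 to 4 on the left, overlaps between the groups on the right.

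Gene by gene, 3 genes differed between cadmium and control sperm, all of them predicted lncRNAs and all higher with cadmium. The edgeR quasi-likelihood test on 8696 genes called 3, or 0.0345%, with the limits of an adjusted p (Benjamini-Hochberg) under 0.05 and a fold over 2, and none was lower. At an unadjusted p under 0.05 there were 159 genes (1.83%): 96 (1.1%) were higher and 63 (0.724%) lower. The shares called were 0.322% of 932 predicted lncRNA genes and 0 of 1911 known mRNA, 233 predicted mRNA and 5620 known lncRNA genes, among which 11, 7 and 63 genes were higher (0.576%, 3% and 1.12%) and 9, 1 and 38 lower (0.471%, 0.429% and 0.676%) at an unadjusted p under 0.05. Among predicted lncRNA genes it was 15 in either direction (1.61% each). Scaled to library totals alone, 5 genes were called, 4 higher and 1 lower. With at least 10 counts in every sample, 8 of 2399 genes were called, 1 higher and 7 lower. That filter removed the 3 genes above, which were not among the 8. With no filter on low counts, 19 of 42721 genes were called, 12 higher and 7 lower. DESeq2 called 9 genes, 5 higher and 4 lower, and limma on log2 FPKM called 0, with 303 or 159 genes at an unadjusted p under 0.05 for a pseudocount of 1 or 0.1. The replicate spread was wide, with a biological coefficient of variation of 0.678 and a median standard error of 1.16 on the log2 scale, so that a 2-fold difference in 1 gene was generally not detectable. The median log2 fold change over all tested genes was 0.15 (0.33 when libraries were scaled to their totals alone), and 58.7% of genes had a fold above 0. In CPM, 17.6% of tested genes lay higher in both cadmium libraries than in controls 2 to 4, and 3.33% lay lower in both. By class the higher share was 17.5% of known mRNA, 23.6% of predicted mRNA, 17.5% of known lncRNA and 16.6% of predicted lncRNA genes, and the lower share was 2.72%, 4.72%, 3.65% and 2.36%.

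**Figure D3:**
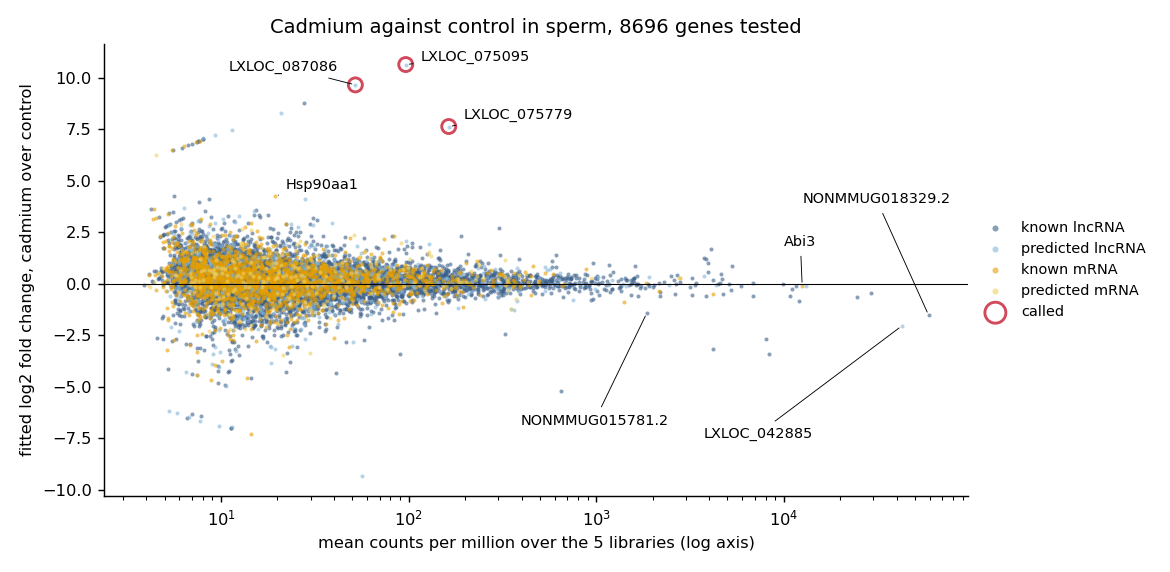
Each point is 1 of 8696 tested genes, coloured by RNA class, with its mean CPM over the 5 libraries on a log axis and its fitted log2 fold change of cadmium over control. The 3 called genes are ringed at 7.64 to 10.65, while NONMMUG018329.2 and LXLOC_042885, at the far right, lie at -1.54 and -2.04 without passing the test.

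The 3 called genes were listed in the cadmium libraries and were at or almost at 0 in every control library. No source used here gives a function for any of them, and each had 1 transcript. LXLOC_075095, of 3743 bases, held 261 and 323 counts in cadmium 1 and 2 (225.5 and 257.2 CPM) and 0 in all 4 control libraries. Against a floor of 3 counts over the 3 controls together it was at least 156-fold higher, and its adjusted p in the edgeR test was 0.000776. In FPKM, a level per length, it stood at 60.5 and 69.04. The libraries of a group thus lay close together and far apart from those of the other.

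LXLOC_075779, of 2885 bases, held 465 and 514 counts with cadmium (402.1 and 409.4 CPM), 3.44 in control 4 and 0 in controls 1, 2 and 3. The ratio of pooled CPM was 262, with a 95% exact interval of 89.3 to 1271 that covers counting error only, and the edgeR fit gave a log2 fold change of 7.64 ± 0.86 (SE) with an adjusted p of 0.000776. LXLOC_087086, of 3079 bases, was less even: cadmium 1 held 228 counts and cadmium 2 held 79 (197.2 and 62.9 CPM), with 0 in all 4 control libraries, which was at least 82.1-fold higher than the floor, with an adjusted p of 0.0175. Without control 2, the only deep control, none of the 3 passed, although 342 of 6703 genes had an unadjusted p under 0.05 in the edgeR fit. That fit had fewer control libraries and fewer genes tested as well as less depth. With all libraries thinned to the smallest, the 3 genes passed. The reason for the loss was not tested. Without cadmium 1 or without control 4 the first and second of these genes passed and LXLOC_087086 did not.

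Other genes came near the threshold, and they were named after their values were seen. NONMMUG082385.1, a known lncRNA, held 105 and 60 counts with cadmium and 0 in all 4 control libraries, which was at least 44.1-fold higher, with an adjusted p of 0.159. LXLOC_027524, a predicted lncRNA, ran the other way, at 9.97, 68 and 45 counts in controls 2 to 4 and 0 in both cadmium libraries, with an adjusted p of 0.124. Control 1 was also at 0 for this gene. NONMMUG016749.2 stood at 253, 488 and 697 CPM in controls 2 to 4, 207 in control 1 and 70.1 and 117 with cadmium, a log2 fold change of -2.44 ± 0.54 (SE; adjusted p = 0.539). NONMMUG047743.1 had the opposite pattern, at 80.9, 21.1 and 87.8 CPM in controls 2 to 4 and 441.8 and 324 with cadmium (log2 fold change 2.33 ± 0.56, adjusted p = 0.766). For both of the last genes all 4 control libraries lay outside the cadmium range, yet neither passed in the main fit. With DESeq2, NONMMUG082385.1 was called higher, and LXLOC_027524 and NONMMUG016749.2 were called lower.

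The most abundant RNAs of sperm were lncRNAs, and the 2 highest were lower with cadmium without passing the test. NONMMUG018329.2, a known lncRNA gene, stood at 79543, 65136 and 88971 CPM in controls 2 to 4 and at 40241 and 21882 with cadmium, a log2 fold change of -1.54 ± 0.52 (SE; edgeR adjusted p = 1). LXLOC_042885, a predicted lncRNA gene, stood at 59437, 55202 and 66484 CPM in those controls and at 13090 and 18894 with cadmium, a log2 fold change of -2.04 ± 0.52 (edgeR adjusted p = 1). Under other settings both were called lower. NONMMUG018329.2 was called with no filter on low counts. LXLOC_042885 was called with no filter, with DESeq2 and with at least 10 counts in every sample. Control 1 held 24018 and 25741 CPM of these genes, within the cadmium range for the first and near it for the second. The next 8 genes (NONMMUG020672.2, NONMMUG074735.1, LXLOC_037274, Abi3, NONMMUG039787.2, NONMMUG019544.2, NONMMUG031296.2 and NONMMUG039964.2) overlapped between the groups, with log2 fold changes of -0.83 to -0.10, and together they took 13.5% ± 2.57 of control and 10.96% ± 2.67 of cadmium counts. Abi3, a known mRNA of an actin-regulating adaptor protein, was among these 10 genes, at 9573, 12378 and 15130 CPM in controls 2 to 4 and 13032 and 12510.4 with cadmium (log2 fold change -0.10 ± 0.43).

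NONMMUG020675.2, another abundant known lncRNA gene, spread widely among the controls, at 30826, 3337 and 4569 CPM in controls 2 to 4, 22522 in control 1 and 703 and 2055 with cadmium. Its fold change of -3.40 on the log2 scale did not pass (adjusted p = 1), and the controls differed among themselves by more than the lowest of them differed from cadmium 2. The gene was called lower with no filter on low counts, with at least 10 counts in every sample, and with control 1 added and the replicate block. NONMMUG056991.1 differed widely between the cadmium libraries, at 2088 and 11864 CPM, against 2594, 2800 and 996 in controls 2 to 4.

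**Figure D4:**
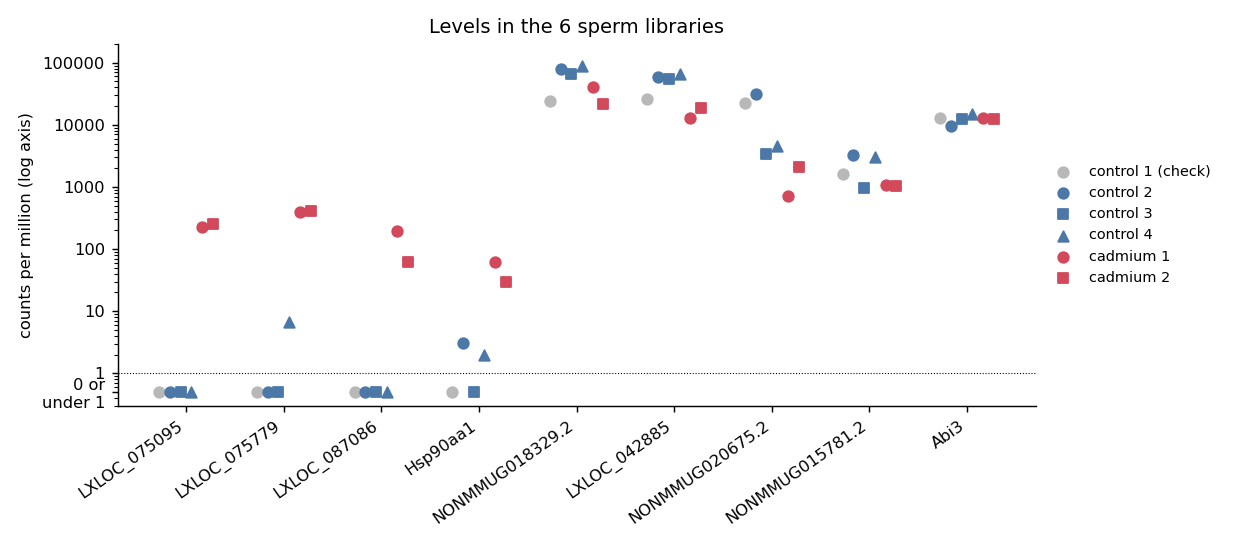
Points give the CPM of 9 genes in each sperm library on a log axis, with control 1 in grey, controls 2 to 4 in blue, cadmium in red and values under 1 CPM set on the lowest line. The 3 called genes have cadmium points between 62.9 and 409.4 CPM over control points at 0 to 6.77, whereas the points of Abi3 lie together.

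No known mRNA gene passed the test, and the groups of genes by function showed few differences. Of 747 genes in 16 functional lists, 678 were in the files, 483 were above 0 in a sperm library and 87 had enough counts to be tested. None was called, and 1 had an unadjusted p under 0.05. In CPM, 19 of the 87 (21.8%) lay higher in both cadmium libraries than in controls 2 to 4 and 1 (1.15%) lay lower, against 17.5% and 2.72% of all 1911 known mRNA genes tested. The median log2 fold change of the 87 was 0.22, against 0.20 over known mRNA genes. The summed CPM of 5 of the 16 lists was higher in both cadmium libraries than in all 4 control libraries (protamines, glycolysis, heat shock, DNA repair and translation), and none was lower. For protamines the margin was slight, at 342 and 340 CPM with cadmium against 338 in control 4. The list sums moved with the number of genes listed and were not tested.

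No gene of sperm structure or motility passed the test. In the list of protamines and spermatid chromatin proteins, 4 of the 8 genes in the files were tested, with a median log2 fold change of 0.04. Prm2, which packs the sperm nucleus, stood at 139.9, 133.7 and 255.8 CPM in controls 2 to 4 and 206.8 and 232.0 with cadmium, so that the groups overlapped (log2 fold change 0.17 ± 0.48). Chd5, a remodeller that acts in the exchange of histones, stood at 48.2, 2.73 and 57.1 CPM in controls and 93.5 and 70.1 with cadmium (0.91 ± 0.84). Among testis-specific kinases 4 of 11 were tested, with a median of 0.13. Tssk1 was the highest at 84.6 to 169 CPM in controls 2 to 4 and 130 to 222 with cadmium, and these overlapped. Of 17 channel and transporter genes in the files 3 were tested (median 0.10), among them Hvcn1, the proton channel (-0.23 ± 0.65), and Catsper2, a subunit of the sperm calcium channel (0.10 ± 1.22). Catsperd, an auxiliary subunit of the same channel and the other one tested, held 4, 0 and 0 counts in controls 2 to 4, 0 in control 1 and 24 and 13 with cadmium, a log2 fold change of 2.87 ± 1.74 that did not pass (edgeR adjusted p = 1). The list of the fibrous sheath, dense fibres and axoneme had 30 of 36 genes above 0 in sperm but only 2 tested: Odf2 of the dense fibres (0.13 ± 0.65) and Spata18 (-0.03 ± 1.52).

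Genes of the acrosome and of egg binding had 3 of 40 members tested, with a median log2 fold change of 0.51. Ace, whose testis form is shed from the sperm surface, stood at 48.2, 81.9 and 68.9 CPM in controls 2 to 4 and at 151.5 and 63.8 with cadmium, so that only cadmium 1 was outside the control range. Adam1a, a fertilin subunit, overlapped (-0.04 ± 0.43). Glycolysis genes, which feed the flagellum, had 3 of 21 tested and the highest median, 1.10. Eno1 led them at 257, 0 and 160.5 CPM in controls 2 to 4 and 459 and 282 with cadmium (1.10 ± 0.90), while control 1 held 253. Pkm stood at -0.09 ± 0.84. In the respiratory chain list 3 of 76 genes were tested (median 0.29). Ndufa13, a complex I subunit and by far the highest gene of the list, was at 1695, 2554 and 2583 CPM in controls 2 to 4 and 2106 and 1876 with cadmium, which lay between the controls (-0.34 ± 0.39). Atp5f1, a subunit of ATP synthase, stood at 0.29 ± 0.55.

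Heat shock proteins and chaperones, which refold damaged proteins, formed 1 of the 5 lists with higher sums. The summed CPM was 592, 544 and 523 in controls 2 to 4, 718 in control 1 and 839 and 767 with cadmium. Of the 50 genes 12 were tested, 9 with a log2 fold change above 0, 3 below, and a median of 0.65. Hsp90aa1, the inducible cytosolic Hsp90, was the 1 member with an unadjusted p under 0.05 and was named after its values were seen: it held 3.20, 0 and 1 counts in controls 2 to 4, 0 in control 1 and 72 and 37 with cadmium. The ratio of pooled CPM was 21.9, with a 95% exact interval of 8.30 to 81.6 for counting error only, and the log2 fold change of 4.26 ± 1.26 did not pass after adjustment (p = 0.00386 in the edgeR fit, adjusted p = 1). The other members did not share its size. Hsp90ab1, the constitutive partner, stood at 9.45, 0 and 9.84 CPM in the controls and 14.7 and 26.3 with cadmium, and the inducible Hspa1a stood at 35.4, 87.3 and 25.6 CPM against 50.7 and 37.3 (-0.27 ± 0.74). Hspa12a, the highest member, overlapped at 146, 254 and 134 CPM in the controls against 211 and 133, and Tcp1, a chaperonin subunit, stood at 141, 84.6 and 92.5 against 118 and 260 CPM (0.70 ± 0.55).

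Metal-handling genes, the list nearest to the agent, did not separate the groups. Of 43 genes 37 were in the files, 29 were above 0 in sperm and 6 were tested, 2 above 0 and 4 below, with a median log2 fold change of -0.08. The summed CPM overlapped, at 212, 348 and 230 in controls 2 to 4 and 332 and 257 with cadmium. The metallothioneins Mt1 and Mt2, small cysteine-rich proteins that bind cadmium and zinc, were listed at 0 in all 6 sperm libraries, which allows up to 2.39 CPM in the deepest of them. Mtf1, the zinc-sensing factor that drives both genes, stood at 40.6, 46.4 and 55.1 CPM in controls 2 to 4 and 85.7 and 71.7 with cadmium. That difference was 0.57 ± 0.62 on the log2 scale (edgeR adjusted p = 1), and control 1, at 94.2 CPM, was above both cadmium libraries. The zinc exporters Slc30a1 and Slc30a7 overlapped between the groups, at -0.15 ± 0.66 and -0.31 ± 0.63.

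The promoters of Mt1 and Mt2 are shown because Mtf1 is known to act on these genes through metal response elements, and because the genes had no counts in sperm at this depth. Both are the 250 bases before the annotated start on the plus strand, from RefSeq in build GRCm38.p6, and capitals mark matches to the core TGCACNC or TGCGCNC on either strand. The core was found at 1 place in Mt1 (chr8:94178839-94179088) and at 3 places in Mt2 (chr8:94172368-94172617), and in 21.4% of 32851 promoters of the same length. A match describes the letters only.
Mt1: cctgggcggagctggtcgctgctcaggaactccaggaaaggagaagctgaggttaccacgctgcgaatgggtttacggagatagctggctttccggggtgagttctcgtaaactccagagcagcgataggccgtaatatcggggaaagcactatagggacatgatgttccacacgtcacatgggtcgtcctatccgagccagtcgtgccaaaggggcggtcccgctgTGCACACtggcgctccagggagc
Mt2: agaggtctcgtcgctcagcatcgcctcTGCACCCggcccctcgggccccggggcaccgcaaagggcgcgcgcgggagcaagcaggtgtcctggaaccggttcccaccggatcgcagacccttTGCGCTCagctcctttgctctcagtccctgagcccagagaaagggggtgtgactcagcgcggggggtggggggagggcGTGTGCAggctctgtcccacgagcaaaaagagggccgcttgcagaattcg

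Lists of stress and damage responses held few testable members. In the oxidative stress and glutathione list 3 of 56 genes were tested (median log2 fold change -0.29). Keap1, the sensor that restrains Nrf2, stood at 215, 115 and 193 CPM in controls 2 to 4 and 398 and 173 with cadmium. Slc7a11, the cystine importer, overlapped (-0.29 ± 0.73), and Hmox1, a haem oxygenase induced by metals in many cells, was listed at 0 in every sperm library. The apoptosis and p53 list had 6 of 41 tested (median 0.21), led by Bcl2l11, a BH3-only protein (0.01 ± 0.44), and Endog, a mitochondrial nuclease (-0.39 ± 0.64). The DNA repair list had 4 of 56 tested (median 0.70). Its summed CPM was 160, 62.8 and 149 in controls 2 to 4, 172 in control 1 and 223 and 217 with cadmium. Ercc2, a helicase of excision repair, stood at 65.2, 43.7 and 57.1 CPM in the controls and 111.6 and 84.5 with cadmium (0.62 ± 0.59), and Ung, a uracil glycosylase, at 0.78 ± 1.42. Of 27 inflammation genes in the files only Socs3, an inhibitor of cytokine signalling, was tested (0.40 ± 1.21). H2-K1, the other highest member, held 0 to 5.90 CPM in controls 2 to 4 and 5.58 to 6.92 with cadmium.

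Genes of protein synthesis and turnover were among the largest groups. Of 82 ribosomal protein genes in the files 61 were above 0 in sperm and 7 were tested, 6 with a log2 fold change above 0 and 1 below, with a median of 0.55. Rps12 stood at 113, 62.8 and 102 CPM in controls 2 to 4 and 222 and 94.1 with cadmium, so the groups overlapped (0.51 ± 0.54), and Rpl10 stood at -0.05 ± 0.58. Ribosomal protein genes have many near-identical copies, among which the estimated counts are uncertain. Translation factors and germ-cell RNA-binding proteins had 18 of 60 tested, 9 on either side of 0, with a median of 0.00. Cpeb2, which controls translation through the poly(A) tail, stood at 103, 35.5 and 108 CPM in the controls and 226 and 106 with cadmium (0.74 ± 0.59), and Eif5b, an initiation factor, at 1.16 ± 1.01. The proteasome and ubiquitin list had 8 of 63 tested (median 0.37), with Herc4, a ubiquitin ligase, at -0.36 ± 1.09 and Psmd8, a subunit of the proteasome cap, at 0.60 ± 0.82.

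**Figure D5:**
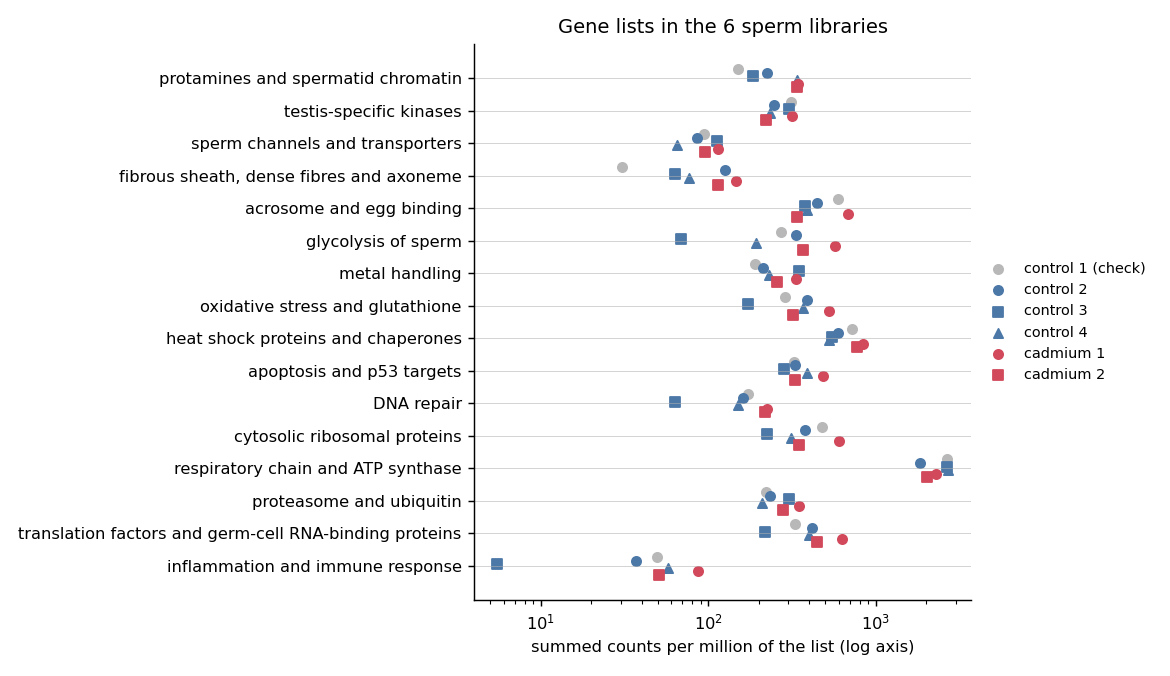
Points give the summed CPM of 16 functional lists in each sperm library on a log axis, with control 1 in grey, controls 2 to 4 in blue and cadmium in red. In 5 lists both cadmium points lie above all control points, as for heat shock at 839 and 767 against at most 718, and in the other 11 the points overlap.

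Of the RNAs that the study examined by PCR, 16 were looked up, 10 of them as genes, and 8 had enough counts to be tested. None was called, and the median log2 fold change was -0.31. This list was chosen by the study partly on these libraries, so that it is not independent evidence. NONMMUG015781.2, a known lncRNA, had the lowest p, at 3238, 963 and 3028 CPM in controls 2 to 4, 1630 in control 1 and 1056 and 1032 with cadmium. Control 3 was below both cadmium libraries, and the log2 fold change of -1.41 ± 0.53 did not pass (edgeR adjusted p = 1). Tssk6, a kinase needed for sperm formation, stood at 28.4, 216 and 53.1 CPM in the controls and 46.7 and 42.2 with cadmium, with control 3 alone far above (-1.19 ± 0.76). Pcsk4, a sperm surface protease, stood at 0.96 ± 1.58, Celf3, an RNA-binding protein, at -0.50 ± 1.496, and Actb, a usual reference gene, at -0.04 ± 1.13. The predicted lncRNAs LXLOC_013896 and LXLOC_030768 overlapped, at -0.37 ± 1.13 and -0.26 ± 0.87. Rplp1 and NONMMUG056132.1 held too few counts to be tested. Of the 6 examined transcripts with their own names, NONMMUT071792.2 lay higher with cadmium, at 19.1, 15.6 and 12.3 FPKM in controls 2 to 4, 15.7 in control 1 and 27.9 and 34.3 with cadmium, while NONMMUT020970.2 overlapped, at 23.2, 0.22 and 24.2 FPKM in controls 2 to 4 and 33.8 and 20.2 with cadmium. NONMMUT051344.2 stood at 9.95, 0 and 0 FPKM in these controls and 11.3 and 13.3 with cadmium. LTCONS_00160905 and NONMMUT080684.1 also lay higher with cadmium, but held at most 7.57 counts in any library, and NONMMUT038067.2 overlapped.

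When transcripts were tested in place of genes, 7 of 9004 passed, 5 higher and 2 lower. LTCONS_00129130 and LTCONS_00130311, both higher, are the only transcripts of LXLOC_075095 and LXLOC_075779. The highest gene, NONMMUG018329.2, had 14 transcripts, of which 3 were higher and 1 was lower with cadmium. NONMMUT029635.2 was given 6415 and 3978 counts with cadmium, 0.22 in control 1 and 0 in controls 2 to 4. In testes it was given 1254 and 1620 counts in the control libraries and 1428 and 3275 in the cadmium libraries. NONMMUT029637.2 was given 945 and 1877 counts with cadmium and 0 in all 4 controls. NONMMUT029640.2 was given 3878 and 691 with cadmium and 0 in controls 2 to 4, but 621 in control 1, which relative to its smaller total was above cadmium 2. Within the same gene the division was not stable between replicates: NONMMUT029636.2 took 31.8%, 35.0% and 34.6% of the gene's counts in controls 2 to 4, 80.1% in control 1 and 2.30% and 65.5% in cadmium 1 and 2. NONMMUT029639.2 took 58.6% in cadmium 1, 0.42% in cadmium 2 and 0 in controls 2 to 4. In the 4 testes libraries it took 90.6% to 93.3%. The isoforms share sequence, and the estimated division of their reads is uncertain.

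NONMMUT029670.2, of 427 bases and also of NONMMUG018329.2, passed in the other direction. It held 13160, 3848 and 5186 counts in controls 2 to 4, 0 in control 1, and 0 and 5.51 with cadmium (adjusted p = 0.00231). The other lower transcript was of a known mRNA. For Rreb1, a zinc finger transcription factor, NM_001177868 held 80.0, 27 and 56 counts in controls 2 to 4, 33 in control 1 and 0.05 and 0 with cadmium (log2 fold change -9.31, adjusted p = 0.0400). The whole gene held 107, 27 and 56 counts in these controls and 224 and 111 with cadmium (0.33 ± 0.53), most of the latter given to NM_026830 (87.3 and 55.0 with cadmium, 0 in every control) and NM_001039188 (129.8 and 49.3 with cadmium; 27.0, 0 and 0 in controls 2 to 4). In all 4 testes libraries NM_001177868 was at 0.

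The effect in sperm was then set beside that in testes of the same treatment. By the study's methods, control testes came from the mice that gave the control sperm. Whether this held for cadmium is not given, and the tests took the libraries of the 2 tissues as independent. In testes, 3 of 16727 genes were called (0.0179%, with 0.353% at an unadjusted p under 0.05) in a fit without the replicate block, and 15 with it. In a model likewise without the block, the difference of the 2 effects was called for 1 of 13953 genes (0.00717%, with 2.84% unadjusted). LXLOC_075095 was that gene, with a difference of 16.56 on the log2 scale (adjusted p = 0.0417): in testes it held 0 and 9.07 counts in control and 0 in both cadmium libraries. The size of a fitted difference at these zeros depends on the model, and the call was lost when any of 4 libraries was left out, which were sperm control 2, each cadmium sperm library and testes control 2. LXLOC_087086 was called in both tissues, with 72 and 80 counts in the cadmium testes and 0 in both control testes (adjusted p = 0.0229 in testes), and the difference between the tissues was not called (adjusted p = 1). LXLOC_075779 was listed at 0 in all 4 testes libraries. The 2 most abundant sperm lncRNAs, NONMMUG018329.2 and LXLOC_042885, had log2 fold changes of 0.73 and 1.01 in testes and -1.54 and -2.04 in sperm. None of these passed, and nor did the differences between the tissues, at -1.81 ± 0.65 and -2.61 ± 0.79 (SE). In sperm, control 1 lay within the cadmium range for the first gene and near it for the second.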

How the data were processed

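Expected counts and FPKM per transcript were deposited by the authors. Ribosomal RNA had been removed by RNase H, and paired reads kept the strand. The submitters' processing notes name HISAT and mm10, the study's methods name SOAP2, and the counting tool is not given in the sources used here. Of the sperm values, 29.3% to 37.3% were not whole.

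Expected counts were summed by gene and rounded for edgeR (4.0.16, R 4.3.3; filterByExpr at 10 counts, TMM, quasi-likelihood test, two-sided, Benjamini-Hochberg adjustment over all genes tested). Standard errors were worked back from the F statistic, and CPM was taken on library totals. Shares were compared by exact permutation tests (scipy 1.17.1). Tested alternatives used DESeq2 (1.42.0) and limma (3.58.1). No duplicate library was seen. Gene names turned into dates (39 transcripts, all restored) occurred in every cadmium file, at 15 and 22 entries in sperm, and at 0 in every control file. The files of the 2 groups thus differed in handling as well as in treatment, which cannot be told apart here, and its part in the results was not tested. No column came from other samples. The members and lists were chosen with earlier results of these data known. Genes named by rule were called genes, the 2 highest members of each list, the 10 highest genes and the RNAs the study examined (Elf3, listed there in place of Celf3 by mistake, was dropped), and genes named otherwise are said to be so in the text. Other named genes, such as Hsp90ab1, Mtf1, Slc30a1 and those in the closing section, were picked after values were seen. In sperm, replicates 1 and 2 did not deviate together between the groups (correlation of deviations -0.0636 over 8545 genes). Control 1 was far shallower than control 2, so this value cannot show whether the samples were paired.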

Additional observations from a re-analysis of the deposited data

Results flagged for a closer look

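Among 76 genes tested for a control library far from the other 3 (Dixon's test at the 95% level), 7 stood out. Chance alone gives about 1 in 20 for normally distributed values, a rate that need not hold for counts near 0. In control 3, whose library was the smallest, these were Star at 109 CPM (others 0 to 15.1) and Asb17 at 62.8 (0 to 9.84). In control 4 they were LXLOC_075779 at 6.77 CPM (others 0) and Rpl10 at 51.2 (92.8 to 101). With the others at 0 any value stands out in this test, and LXLOC_075779 held only 3.44 counts there. In control 2 it was Ndufa13 at 1695 CPM (2496 to 2583), and in control 1 Atp5f1 at 115 (70.8 to 76.6) and NONMMUG056132.1 at 23.6 (0 to 3.38).

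LXLOC_075095 had a cadmium effect that differed between sperm and testes by 16.56 on the log2 scale (edgeR interaction term, adjusted p = 0.0417).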

How the results depend on the processing

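The number of genes called in sperm was 3 with the main settings, and also with RLE and upper-quartile scaling, with thinning to equal depth, with control 1 added, without the 10 highest genes and with names as deposited. It was 5 with library totals alone, 9 with DESeq2, 0 with limma at either pseudocount, 19 with no filter on low counts, 8 with at least 10 counts in every sample (a filter that removes genes at 0 in a group), 80 with control 2 alone, 7 over transcripts and 0 when known mRNA genes were fitted alone (15 at an unadjusted p under 0.05). Leaving out 1 library gave 0 (without control 2, the deepest control) to 4 (without control 3). With control 1 added and the replicate block it was 7, and with replicates 1 and 2 alone and the block it was 2, an alternative chosen after seeing the data, as were the names as deposited. Known mRNAs called numbered 10 with control 2 alone and 1 over transcripts, and predicted mRNAs 2 with control 2 alone. Known lncRNAs called numbered 1 with library totals, 3 with DESeq2, 12 with no filter, 7 with the stricter filter, 4 with control 1 and the block, 36 with control 2 alone, 4 over transcripts and 0 to 1 with 1 library left out. Predicted lncRNAs called numbered 6 with DESeq2, 0 with limma, 7 with no filter, 1 with the stricter filter, 32 with control 2 alone and 0 to 3 with 1 library left out. In testes, where the numbers deviated together (correlation 0.708), the replicate block gave 15 calls and leaving out 1 library 29 to 72, and for the difference between tissues leaving out 1 library gave 0 to 10. The cause of these differences was not tested.

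In percentage points, the known mRNA difference was 0.719 to 3.83 and the predicted mRNA difference 0.291 to 0.790 with 1 library left out. The known lncRNA difference was -2.92 in FPKM and -1.96 without the 10 highest genes, and that of predicted lncRNAs was 0.745, 0.609 and, with control 1 added, -2.14. The difference in genes listed was 617 for at least 5 counts and 13974 at own depth, and that of the 100 highest genes was -10.7 points. Of 1888 values of 97 genes (those named and those of lowest p) under the alternatives, 1668 kept their call and size, 162 moved by more than their standard error, 46 became called and 12 lost a call, and 175 uncalled values in 39 of the genes changed sign, but no called one. The detection floor was highest in the controls, where 3 counts were worth up to 8.19 CPM.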

Other observations

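Some genes were listed in sperm of 1 group only. With at least 10 counts in both cadmium libraries and under 0.5 in all 4 control libraries there were 23 of the 69550 genes in the files. By class these were 5 of 16060 known mRNAs, 2 of 1686 predicted mRNAs, 6 of 41999 known lncRNAs and 10 of 9805 predicted lncRNAs. Of the 23, 22 held at least 3 counts in a testes library. The reverse, at least 3 counts in all 4 controls and under 0.5 in both cadmium libraries, held for 1 gene, a known lncRNA. The rules of the 2 directions differed in their count limits and in the number of libraries asked for, and the cadmium libraries were far deeper than 3 of the 4 controls. The numbers are therefore not like for like, and they were not tested. Among the known mRNAs of the first kind were Gm17019 (31 and 15 counts), Papd5, an RNA-tailing polymerase (28 and 16), and Tmem67, a protein of the ciliary transition zone (17 and 16). Asb17 ran the other way, at 0, 23 and 5 counts in controls 2 to 4 and 0 with cadmium.

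Across both tissues, 59 of 84289 transcripts were listed in all 4 cadmium libraries and in none of the 6 control libraries, and 0 in every control and no cadmium library. Of the 59, only 2 reached 20 counts in a cadmium library. The reverse asked for presence in more libraries, and most control sperm libraries were far shallower than the cadmium ones. The numbers in the 2 directions are therefore not like for like, and their difference was not tested.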
